A study of Mus musculus with 19 samples.

Results

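The subject is the control ovary of the adult mouse, measured on 8 of the 19 arrays of a study of Hedgehog ligands in the ovary. The 8 arrays, labelled Ihh_Dhh_dhet 1 to 8, were taken by their label. They hold whole-ovary RNA from females aged 2 months that were heterozygous for both Dhh (Desert hedgehog) and Ihh (Indian hedgehog), so the controls themselves carried 1 altered copy of each gene. The labels describe the deletion as specific to the ovary; the driver of the deletion, the strain, the day of the estrous cycle and the number of animals per array were not stated in the sources. RNA was amplified from 50 ng and hybridised to Affymetrix Mouse Genome 430 2.0 arrays, and each value is a signal, the linear intensity of a probe set, which is a group of short probes for 1 transcript. The mutant arrays were not used.

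In a cycling mouse, follicles made of an oocyte, granulosa cells and a surrounding theca grow until a surge of luteinizing hormone (LH) triggers ovulation, after which the emptied follicle becomes a corpus luteum that makes progesterone. Theca cells make androgens, granulosa cells convert them to estrogen, and the corpus luteum is later dismantled in response to prostaglandin F2 alpha. Ovaries collected on different days therefore hold these structures in different proportions. In whole-ovary RNA, fewer cells of a type and less RNA per cell cannot be told apart.

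The arrays fall in 2 hybridization sets that the labels do not mention. Control arrays 1 to 4 had a 3'/5' signal ratio of 1.02 to 1.05 for the hybridization control BioC, against 0.737 to 0.781 on control arrays 5 to 8, and a median signal of 101 to 126, against 115 to 160. Across genes, the deviation of each array from the mean of its set correlated with that of 1 array of the other set: r was 0.54 for controls 1 and 5, 0.75 for 2 and 6, 0.69 for 3 and 7 and 0.77 for 4 and 8, and between -0.63 and 0.16 for the other 12 combinations. These 4 pairs are called matched arrays. The genes behind these correlations are not independent replicates, and the labels do not say whether matched arrays share an animal or an RNA sample. The 8 arrays are therefore not treated as 8 animals: values are given for the 4 arrays of each set, and differences within a set were described without a test. The tissue label was met by the markers of the ovary: on every array the zona pellucida gene Zp3 had a signal of at least 1130, the granulosa transcription factor Foxl2 at least 3575 and the steroid enzyme gene Hsd3b1 at least 11447.

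A gene was called variable when its highest and lowest arrays differed by at least 1 on the log2 scale (2-fold) in both sets and were matched arrays in both sets. Fold differences within a set are on the scale of log2(signal + 6.84), which understates those of weak genes. A total of 676 of the 12442 genes tested were variable, or 5.43%, and without controls 4 and 8 the count was 377. Of the 676, 202 (29.9%) were highest on controls 2 and 6 and lowest on controls 4 and 8, among them the luteal genes Akr1c18, Ptgfr and Sfrp4.

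Because these genes had the same order over the arrays, the 250 bases before their annotated start are shown for Akr1c18, Ptgfr and Hsd17b7, luteal genes of that order, and for Cemip and Cryba4, the variable genes of that order with the largest shared SD (defined with the values) that hold a TATAAA motif or the motif AAGGTCA. The sequences are from RefSeq, build GRCm38.p6, and all 5 genes lie on the minus strand: Akr1c18 at chr13:4150647-4150896, Ptgfr at chr3:151837529-151837778, Hsd17b7 at chr1:169969206-169969455, Cemip at chr7:84086506-84086755 and Cryba4 at chr5:112252519-112252768. Each is written 5' to 3' along its gene. Capitals mark TATAAA, the TATA box, 29 bases before the start of Cemip, and AAGGTCA, the sequence read by the NR5A receptors of steroid-making cells, on the reverse strand 20 bases before the start of Cryba4.
Akr1c18: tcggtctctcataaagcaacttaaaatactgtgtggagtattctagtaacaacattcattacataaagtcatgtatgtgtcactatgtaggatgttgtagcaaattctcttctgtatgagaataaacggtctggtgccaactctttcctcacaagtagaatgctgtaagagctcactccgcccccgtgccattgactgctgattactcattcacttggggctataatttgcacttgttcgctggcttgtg
Ptgfr: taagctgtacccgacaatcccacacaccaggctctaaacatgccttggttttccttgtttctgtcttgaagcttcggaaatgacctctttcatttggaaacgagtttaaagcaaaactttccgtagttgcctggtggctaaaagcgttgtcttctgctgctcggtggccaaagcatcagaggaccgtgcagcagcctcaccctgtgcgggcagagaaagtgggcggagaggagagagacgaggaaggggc
Hsd17b7: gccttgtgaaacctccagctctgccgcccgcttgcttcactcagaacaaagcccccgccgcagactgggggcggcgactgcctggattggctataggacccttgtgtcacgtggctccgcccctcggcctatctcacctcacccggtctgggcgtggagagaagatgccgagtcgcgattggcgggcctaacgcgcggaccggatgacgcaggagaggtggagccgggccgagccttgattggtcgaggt
Cemip: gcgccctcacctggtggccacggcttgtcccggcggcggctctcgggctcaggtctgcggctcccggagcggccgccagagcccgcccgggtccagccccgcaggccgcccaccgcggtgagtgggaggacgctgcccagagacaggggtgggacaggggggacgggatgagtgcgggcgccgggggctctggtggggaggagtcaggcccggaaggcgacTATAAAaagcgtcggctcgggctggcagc
Cryba4: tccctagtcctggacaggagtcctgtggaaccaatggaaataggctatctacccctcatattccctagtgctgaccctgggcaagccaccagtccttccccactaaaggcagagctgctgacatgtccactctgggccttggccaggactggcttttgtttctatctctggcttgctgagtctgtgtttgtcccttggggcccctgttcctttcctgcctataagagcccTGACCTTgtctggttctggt

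The motif AAGGTCA, the TATA box and TGACGTCA, the cyclic AMP response element, which reads the same on both strands, were searched on both strands of these windows, and no motif overlaps another. None of these was found in the windows of Akr1c18, Ptgfr or Hsd17b7. Of the 202 genes with this order, 155 had a window, and AAGGTCA was in 8 of them (5.16%), against 3.34% of the windows of all genes tested and 4.70% of all windows in the table. TATAAA was in 23 of the 155 (14.8%), against 8.21% of genes tested and 14.3% of all windows. TGACGTCA was in 2 of the 155 (1.29%), against 2.94% of genes tested and 1.77% of all windows. Variable genes of the reverse order, highest on controls 4 and 8 and lowest on controls 2 and 6, had 104 windows. TATAAA was in 17 of them (16.3%), AAGGTCA in 3 (2.88%) and TGACGTCA in 1 (0.96%). The TATAAA and TGACGTCA shares were thus not particular to either order. For AAGGTCA the shares rest on 8 and 3 windows and lay on either side of the 4.70% of all windows. Their difference was not tested. A match is a run of letters in a short window and shows no binding.

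The corpus luteum list held the most variable genes of the ovarian cell lists: 5 of its 9 tested members were variable, against 5.43% of all genes. Prlr, Lhcgr and Ptgs1 had no probe set assigned to a single gene and were not measured here. The size of variation is given as the shared SD, the square root of the covariance between the sets over matched arrays, in log2 units. The list's median shared SD was 0.80, against 0.14 for all genes tested.

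Akr1c18 encodes 20-alpha-hydroxysteroid dehydrogenase, which breaks down progesterone as the corpus luteum regresses. It had signals of 886, 6722, 1559 and 44.0 on control arrays 1 to 4, and 830, 5619, 1225 and 74.6 on control arrays 5 to 8. Controls 2 and 6 were the highest and controls 4 and 8 the lowest, a difference of 132-fold in the first set and 69.1-fold in the second. Ptgfr, the receptor of prostaglandin F2 alpha, had signals of 1235, 3956, 1001 and 66.9 on control arrays 1 to 4, and 1275, 4089, 1069 and 110 on control arrays 5 to 8. Its order was that of Akr1c18 at the highest and lowest arrays, with differences of 53.8-fold and 34.9-fold, and 3 of its 4 other probe sets had the same highest and lowest arrays. Sfrp4 encodes a secreted inhibitor of Wnt signalling found in the corpus luteum. It had signals of 8468, 9538, 6088 and 308 on control arrays 1 to 4, and 6297, 7045, 4825 and 532 on control arrays 5 to 8. For this gene controls 4 and 8 stood apart and the other arrays lay within a narrow band.

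Hsd17b7 encodes an enzyme that makes estradiol in the rodent corpus luteum and also acts in cholesterol synthesis. It had signals of 1990, 5952, 1835 and 1175 on control arrays 1 to 4, and 1763, 5254, 1860 and 1377 on control arrays 5 to 8. Controls 2 and 6 stood apart upward here, and the same highest and lowest arrays were found with both of its other probe sets. The fifth variable member, Parm1, a mucin-like membrane protein gene, was highest on controls 3 and 7: it had signals of 507, 707, 1646 and 350 on control arrays 1 to 4, and 687, 906, 1488 and 477 on control arrays 5 to 8. The other tested members, Timp3, Rgcc, Vegfa and Cited4, did not meet the rule. The list's median deviation from the set mean was 0.59 on control 2 and -0.93 on control 4, and 0.61 on control 6 and -0.77 on control 8, an order that quantile normalization and median centring kept. Without controls 4 and 8, or under median centring, 3 of the list's members were variable.

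**Figure D1:**
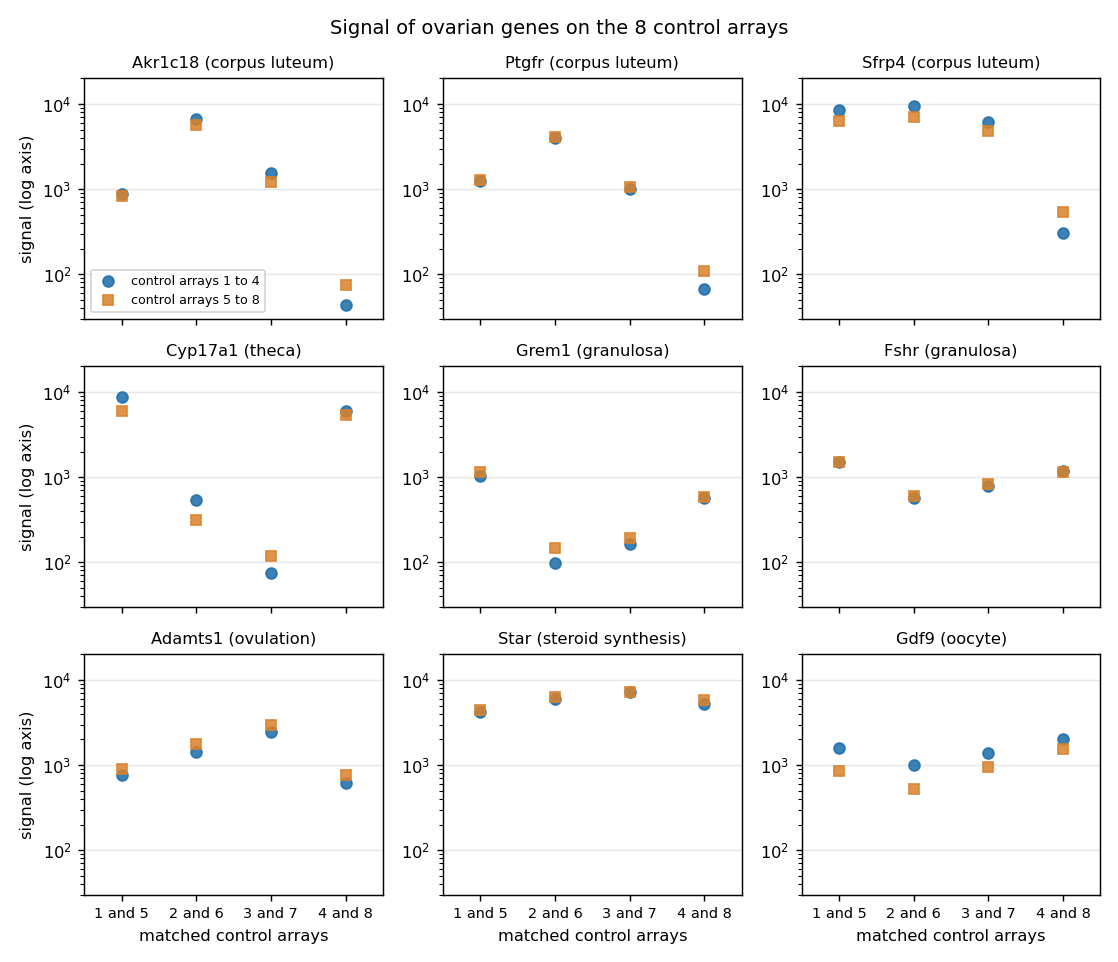
Signal (log axis) of 9 ovarian genes on the control arrays, with matched arrays at the same position; circles are control arrays 1 to 4 and squares control arrays 5 to 8. Akr1c18, Ptgfr and Sfrp4 were lowest on controls 4 and 8, Cyp17a1 was lowest on controls 3 and 7 and next lowest on controls 2 and 6, and the Star probe set shown varied by less than 2-fold within each set.

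Of 8 tested genes of steroid hormone synthesis 0 were variable, against 5.43% of all genes, so the count itself does not set them apart. Star, which carries cholesterol into mitochondria, had signals of 4243, 6031, 7260 and 5264 on control arrays 1 to 4, and 4398, 6297, 7145 and 5873 on control arrays 5 to 8. Cyp11a1, the side-chain cleavage enzyme that starts steroid synthesis, had signals of 10671, 11658, 11398 and 5545 on control arrays 1 to 4, and 7571, 8738, 8309 and 4607 on control arrays 5 to 8. Controls 4 and 8 were the lowest for Cyp11a1 and lay 2.10-fold and 1.90-fold under the highest, so that it missed the 2-fold rule in the second set. Its highest arrays were controls 2 and 6 as deposited, controls 3 and 7 under quantile normalization and controls 1 and 7 under median centring, while the lowest stayed controls 4 and 8. Cyp11a1's other, weaker probe set met the rule, with ranges of 1.89 and 1.58 on the log2 scale and the same highest and lowest arrays. Both other probe sets of Tspo, a mitochondrial membrane protein gene, also met it, with controls 2 and 6 highest and controls 4 and 8 lowest, although the one used did not. The other 2 probe sets of Star had ranges of 1.29 and 1.12 in arrays 1 to 4, and 0.98 and 0.99 in arrays 5 to 8.

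Among theca markers 1 of 4 tested members was variable, against 5.43% of all genes, and 0 under median centring. Cyp17a1, the enzyme that makes androgens from progestins, had signals of 8765, 543, 74.1 and 5918 on control arrays 1 to 4, and 5927, 317, 117 and 5321 on control arrays 5 to 8. Controls 1, 4, 5 and 8 were high and controls 2, 3, 6 and 7 low, with no overlap, and the highest exceeded the lowest by 108-fold and 47.8-fold; under median centring control 8 rather than control 5 was the highest of the second set. The other tested theca markers varied by less than 2-fold within each set. Tcf21, a transcription factor gene, had the same highest and lowest arrays as Cyp17a1, with a smaller range of 0.44 on the log2 scale. It had signals of 2706, 2365, 1953 and 2142 on control arrays 1 to 4, and 1675, 1523, 1229 and 1412 on control arrays 5 to 8. Aldh1a1, a retinaldehyde dehydrogenase gene, lay between 9518 and 10694 on control arrays 1 to 4, and between 8986 and 9733 on control arrays 5 to 8. Ptch1, the Hedgehog receptor that is also a target of the pathway, lay between 3763 and 4048 on control arrays 1 to 4, and between 4236 and 5104 on control arrays 5 to 8.

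Of 13 tested granulosa and estrogen genes, 2 were variable (15.4%, against 5.43% of all genes), Grem1 and Fshr. Cyp19a1 had no probe set assigned to a single gene. Grem1, a secreted inhibitor of bone morphogenetic proteins, had signals of 1026, 96.9, 164 and 564 on control arrays 1 to 4, and 1154, 148, 194 and 588 on control arrays 5 to 8. Fshr, the receptor of follicle-stimulating hormone, had signals of 1510, 563, 788 and 1167 on control arrays 1 to 4, and 1525, 595, 835 and 1149 on control arrays 5 to 8. Both genes had the order 1, 4, 3, 2 in the first set and 5, 8, 7, 6 in the second. Esr2, estrogen receptor beta, was highest on controls 4 and 8, with 712, 627, 783 and 1619 on control arrays 1 to 4, and 582, 779, 975 and 1779 on control arrays 5 to 8, but its lowest arrays were not matched. Foxl2 and the inhibin gene Inha varied by less than 2-fold within each set. The list's median deviation was lowest on controls 2 and 6, at -0.27 and -0.20, and this held under both scalings.

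The oocyte list varied together by a modest amount. Of 13 tested members, 3 were variable (23.1%, against 5.43% of all genes). Of the 13, 8 had their highest arrays on controls 4 and 8 with matched lowest arrays. Over all genes, 30.4% had matched highest and lowest arrays with any pair on top and at any range. Bmp15 and Gdf9 encode growth factors secreted by the oocyte, and Zp1 a protein of its coat. Bmp15 had signals of 845, 741, 886 and 1595 on control arrays 1 to 4, and 990, 561, 859 and 1787 on control arrays 5 to 8, and its 2 other probe sets gave the same highest and lowest arrays. Gdf9 had signals of 1584, 1007, 1387 and 2022 on control arrays 1 to 4, and 851, 531, 946 and 1545 on control arrays 5 to 8. Controls 4 and 8 were the highest and controls 2 and 6 the lowest for both genes. Gdf9 lay just inside the 2-fold rule, with a smaller range of 1.00044, as did Depdc7 at 1.00029; Bpifb5 at 0.999748 and Angptl7 at 0.999421 lay just outside. The list's median deviation was -0.48 and 0.40 on controls 2 and 4, and -0.52 and 0.51 on controls 6 and 8. The count was 0 without controls 2 and 6 or without controls 4 and 8, and 9 under median centring. Cell division genes were at most 1.66-fold apart for the 4 with the largest shared SD. Of 11 tested, 0 were variable, against 5.43% of all genes, so the count itself does not set them apart.

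Of 8 tested genes of the LH surge and ovulation 2 were variable, against 5.43% of all genes: Adamts1 and Pgr. The count was 1 under quantile normalization, under median centring, without controls 1 and 5, or without controls 4 and 8. Adamts1, a protease needed for the follicle to rupture, had signals of 775, 1428, 2468 and 615 on control arrays 1 to 4, and 898, 1772, 2958 and 762 on control arrays 5 to 8. Controls 3 and 7 were highest, 3.98-fold and 3.86-fold above controls 4 and 8; under median centring control 5 was the lowest of the second set. Pgr, the progesterone receptor, had signals of 165, 133, 108 and 71.3 on control arrays 1 to 4, and 320, 151, 126 and 80.7 on control arrays 5 to 8. Its highest arrays were controls 1 and 5. Another 8 members lay under the filter on low signals (68.1) and were not tested. Among these, Ptgs2, the prostaglandin synthase that the surge induces, lay between 0.956 and 13.8 on control arrays 1 to 4 and between 10.7 and 20.7 on control arrays 5 to 8, and Tnfaip6, a matrix protein of the expanding cumulus, between 36.1 and 73.4 and between 47.7 and 97.8. Sult1e1, an estrogen sulfotransferase gene also under the filter, was highest on controls 1 and 5, at 35.6 and 97.1. Runx1, a transcription factor of the periovulatory follicle, was 1.97-fold and 1.96-fold higher on controls 3 and 7 than on controls 1 and 5 with the probe set used, and 1 of its 4 other probe sets met the rule, with ranges of 1.11 and 1.45 on the log2 scale and the same highest and lowest arrays. Ptx3, a cumulus matrix protein gene, was 2.34-fold and 1.61-fold higher on controls 1 and 5 than on controls 2 and 6.

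Immediate early genes, which respond within minutes to a hormone or to handling, did not share an order. Of 15 tested, 5 were variable, against 5.43% of all genes. Dusp1, a phosphatase of MAP kinases, was highest on controls 3 and 7, with 795, 1917, 3099 and 878 on control arrays 1 to 4, and 678, 1446, 2166 and 805 on control arrays 5 to 8. Nr4a2, a nuclear receptor, was highest on controls 4 and 8, with 355, 436, 284 and 1006 on control arrays 1 to 4, and 610, 574, 445 and 1113 on control arrays 5 to 8. Fos and Nr4a1 were also highest on controls 4 and 8, and Egr3 on controls 2 and 6. Without controls 4 and 8, 2 members were variable, and without controls 3 and 7, 3 were. Of 14 tested genes of cholesterol synthesis and uptake, 1 was variable (7.14%, near the 5.43% of all genes). This was Dhcr7, the last enzyme of the pathway, with 3251, 3881, 5368 and 1858 on control arrays 1 to 4, and 2841, 3612, 4355 and 1923 on control arrays 5 to 8. The list's count was 0 under median centring and without controls 3 and 7 or 4 and 8.

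Markers of other tissues and cells moved on some arrays. For the oviduct, Ovgp1, which encodes an oviduct glycoprotein, had 409, 26.0, 40.4 and 38.2 on control arrays 1 to 4, and 560, 40.6, 49.2 and 39.5 on control arrays 5 to 8. Controls 1 and 5 stood apart for Ovgp1 and also for the ciliary genes Dynlrb2 and Ccdc153, while Wfdc2 was within 2-fold on all arrays and Tekt1 was highest on controls 4 and 5. Pax8 and Foxj1, a transcription factor of ciliated cells, were under the filter, Foxj1 with its highest signals, 44.5 and 114, on controls 1 and 5. Of the 5 tested oviduct genes 1 was variable, Ccdc153, against 5.43% of all genes. The count was 2 under both other scalings and without controls 2 and 6 or 4 and 8, and 0 without controls 1 and 5. For the adipocyte, 3 of 3 tested members were variable, against 5.43% of all genes. Adipoq, the hormone adiponectin, had 170, 30.1, 160 and 329 on control arrays 1 to 4, and 173, 57.3, 162 and 290 on control arrays 5 to 8. Fabp4, a fatty acid carrier, had 865, 535, 1001 and 1988 on control arrays 1 to 4, and 1200, 512, 1072 and 2184 on control arrays 5 to 8. Both were highest on controls 4 and 8 and lowest on controls 2 and 6, the reverse of the order of Akr1c18. Under the filter, the adipocyte gene Lep was likewise highest on controls 4 and 8, at 155 and 154. The adipocyte count was 0 without controls 2 and 6 and 1 without controls 4 and 8.

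Macrophage markers were highest on controls 2 and 6. Of 9 tested, 3 were variable, against 5.43% of all genes, and 7 had matched highest and lowest arrays with controls 2 and 6 on top. Matched highest and lowest arrays, with any pair on top and at any range, were found in 30.4% of all genes. Lyz2, lysozyme, had 3300, 5967, 2933 and 3267 on control arrays 1 to 4, and 2784, 5347, 2459 and 3029 on control arrays 5 to 8. Cd68, a lysosomal protein of phagocytes, and C1qa, of complement, had folds between 2.01 and 2.31 across both sets. The macrophage count was 0 under median centring and without controls 2 and 6, and 1 without controls 3 and 7. Of the endothelial (11), smooth muscle (11), surface epithelium (10) and red blood cell (3) members tested, 0 were variable. With 5.43% of all genes variable, these counts do not set the lists apart. Lgr5, a stem cell receptor of the surface epithelium list, had 146, 591, 301 and 187 on control arrays 1 to 4, and 228, 738, 361 and 223 on control arrays 5 to 8; its highest arrays, controls 2 and 6, were matched and its lowest, controls 1 and 8, were not. Msln, mesothelin, also had a range over 1 in both sets without meeting the rule. For lymphocytes, 4 of the 5 measured markers lay under the filter. The part of oviduct, fat or macrophages in the luteal, theca and granulosa values was not tested.

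**Figure D2:**
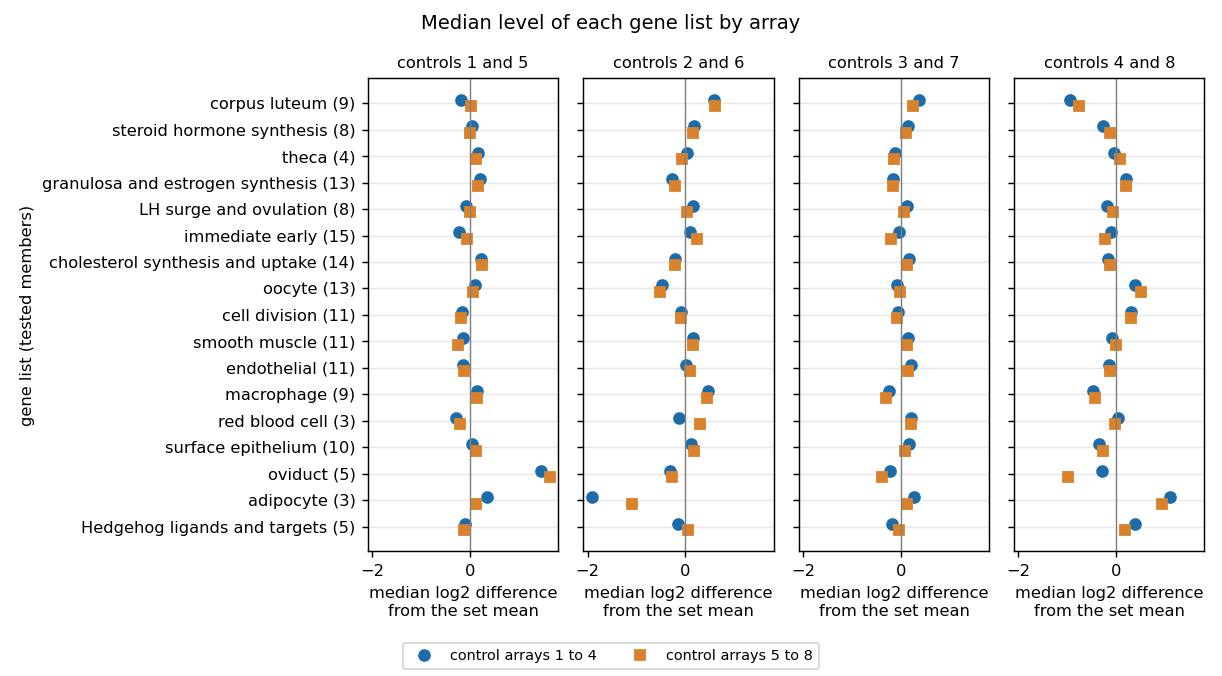
Median log2 difference from the set mean over the tested members of each gene list with at least 3 of them; circles are control arrays 1 to 4, squares control arrays 5 to 8, and each panel holds 2 matched arrays. The corpus luteum list was lowest on controls 4 and 8 (-0.93 and -0.77) and the oviduct list highest on controls 1 and 5 (1.45 and 1.63).

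The 25 named genes with the largest shared SD, from 1.69 upward, included many genes outside the lists with the highest and lowest arrays of Akr1c18. That order was held by 4 of the 9 tested corpus luteum members. It was not particular to them. Among others, the steroid synthesis genes Cyp11a1, Hsd3b1, Scarb1 and Tspo and the macrophage markers Csf1r, Mrc1, C1qa, C1qb and C1qc had it too, at smaller ranges. Of the 25, 18 were highest on controls 2 and 6 and lowest on controls 4 and 8, 21 were lowest on controls 4 and 8, and 6 were highest on controls 3 and 7. Their folds lay between 8.54 and 132. Wnt signalling was represented by Wnt10b, a secreted ligand, and by the inhibitors Sfrp2 and Sfrp4. Wnt10b had 133, 342, 182 and 2.60 on control arrays 1 to 4, and 42.3, 559, 223 and 3.58 on control arrays 5 to 8. Sfrp2 had 1475, 1314, 3305 and 62.4 on control arrays 1 to 4, and 1781, 1388, 2615 and 49.5 on control arrays 5 to 8. For both, controls 4 and 8 were far under the other arrays.

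Several of these genes act on the cell surface or matrix. Nrcam, a cell adhesion molecule, had 416, 3735, 381 and 84.1 on control arrays 1 to 4, and 512, 3506, 446 and 144 on control arrays 5 to 8. Sema3d, a secreted guidance cue, had 123, 2280, 103 and 59.2 on control arrays 1 to 4, and 240, 2153, 181 and 85.8 on control arrays 5 to 8. Controls 2 and 6 stood alone at the top for both. Cemip, a hyaluronan-binding protein, had 528, 2927, 2716 and 79.0 on control arrays 1 to 4, and 440, 1860, 1708 and 94.1 on control arrays 5 to 8, so controls 3 and 7 were almost as high as controls 2 and 6. Ccn5, a matricellular protein, and Megf10, an engulfment receptor, also had their highest arrays on controls 2 and 6.

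Saa3, an acute phase protein, had 485, 2551, 204 and 42.9 on control arrays 1 to 4, and 386, 1839, 188 and 61.2 on control arrays 5 to 8. Cdkn2b, an inhibitor of cyclin-dependent kinases, had 238, 2094, 335 and 56.9 on control arrays 1 to 4, and 204, 1536, 356 and 45.6 on control arrays 5 to 8. S100a4, a calcium-binding protein, had 2155, 6259, 2634 and 188 on control arrays 1 to 4, and 1207, 4182, 1687 and 157 on control arrays 5 to 8. These 3 genes shared the highest and lowest arrays of Akr1c18. Abcb1b, a drug efflux pump, was low on controls 4 and 8 alone, with 2685, 5375, 3605 and 255 on control arrays 1 to 4, and 3776, 6145, 4849 and 386 on control arrays 5 to 8. Plekhg4, Tnfrsf9, Miat, Trpm6 and Kcnab3 made up the rest of the 18.

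A second order had controls 3 and 7 on top. Bhmt, which remethylates homocysteine, had 99.4, 1321, 2597 and 49.2 on control arrays 1 to 4, and 179, 1274, 2524 and 64.8 on control arrays 5 to 8. Plin5, a coat protein of lipid droplets, had 162, 840, 1392 and 28.8 on control arrays 1 to 4, and 260, 823, 1285 and 49.1 on control arrays 5 to 8. Both were high on controls 2, 3, 6 and 7 and low on controls 1, 4, 5 and 8, the reverse of Cyp17a1. Slc12a8 had the same division of high and low arrays.

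Gbp2b, an interferon-induced GTPase, had the largest shared SD, 3.28, and an order unlike that of the ovarian markers. It had 3.85, 4.48, 1198 and 332 on control arrays 1 to 4, and 8.87, 12.9, 1281 and 317 on control arrays 5 to 8. Controls 1, 2, 5 and 6 were near the bottom of the scale, where the order of values is uncertain, and the lowest array of the first set was control 2 rather than control 1 under both other scalings. Mid1, a ubiquitin ligase gene, had a similar division, with 29.9, 71.5, 565 and 344 on control arrays 1 to 4, and 83.4, 83.7, 867 and 365 on control arrays 5 to 8. Among genes highest on controls 4 and 8, Zdhhc14, a palmitoyltransferase, had 465, 399, 32.9 and 541 on control arrays 1 to 4, and 433, 318, 48.8 and 561 on control arrays 5 to 8. Here controls 3 and 7 alone were low, and 3 of its 5 other probe sets had the same highest and lowest arrays. Gsta2, a glutathione transferase, had 859, 387, 1371 and 2972 on control arrays 1 to 4, and 737, 314, 1099 and 2432 on control arrays 5 to 8.

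Under quantile normalization 22 of the 25 genes kept their highest and lowest arrays and their place among variable genes, and under median centring 20 did. Gbp2b, Trpm6 and Mid1 lost theirs under both, and Cyp17a1 and Sfrp4 under centring. Of all 676 genes, 501 and 420 kept theirs. Another 11 probe sets measured 8 of the 25 genes, and 5 of the 11 had the same highest and lowest arrays and met the rule.

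**Figure D3:**
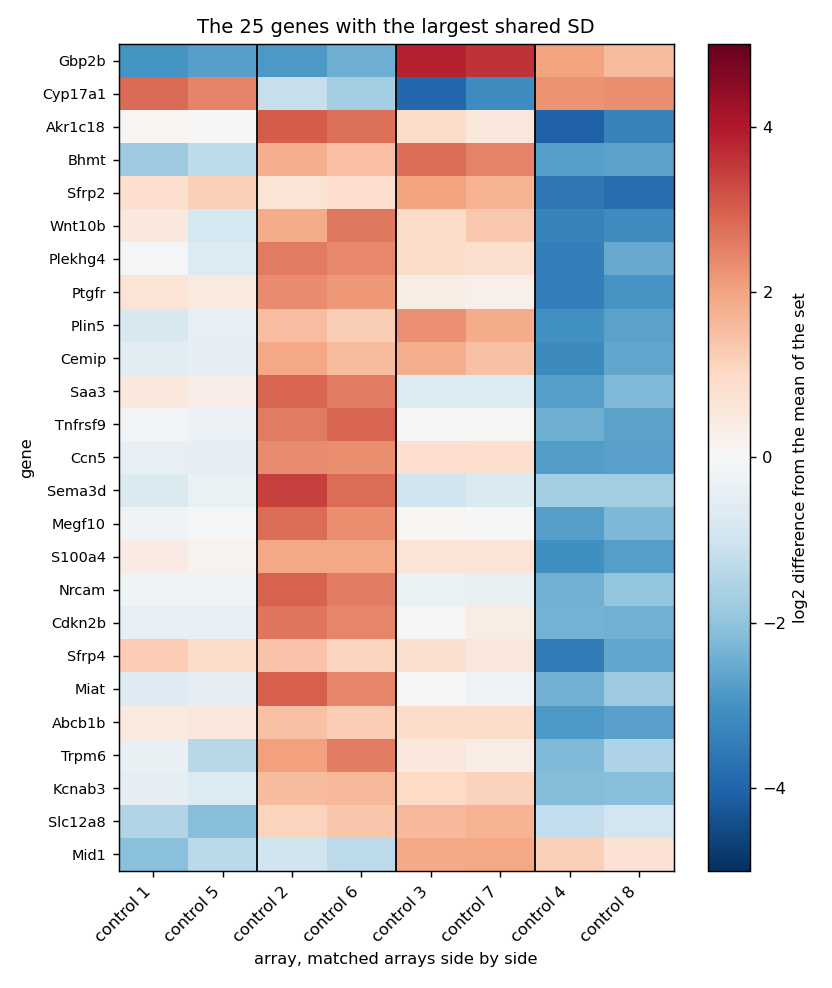
Log2 difference from the set mean (colour) for the 25 named genes with the largest shared SD, in order of shared SD from the top, on the 8 control arrays with matched arrays side by side. In 18 genes the top values are on controls 2 and 6 and the lowest on controls 4 and 8, and Gbp2b and Cyp17a1 have other orders.

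Over all 676 variable genes, controls 2 and 6 were highest for 242 (1.95% of genes tested), controls 4 and 8 for 174 (1.40%), controls 1 and 5 for 134 (1.08%) and controls 3 and 7 for 126 (1.01%). Controls 4 and 8 were lowest for 319. After the 202 genes highest on controls 2 and 6 and lowest on controls 4 and 8 came the reverse order, with 130 genes. Another 80 genes were highest on controls 3 and 7 and lowest on controls 4 and 8. The split depended on the scaling, and controls 2 and 6 led only with the values as deposited. Under quantile normalization 218 genes were highest on controls 4 and 8, 184 on controls 2 and 6 and 98 on controls 3 and 7. Under median centring these numbers were 434, 126 and 71. Controls 2 and 6 had the highest median signal of their sets (126 and 160) and controls 4 and 8 the lowest (101 and 115). The part of this array-wide level in the split was not tested. Without controls 4 and 8 the number highest on controls 2 and 6 was 131, and without controls 2 and 6 the number highest on controls 4 and 8 was 90 and on controls 3 and 7 it was 209.

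**Figure D4:**
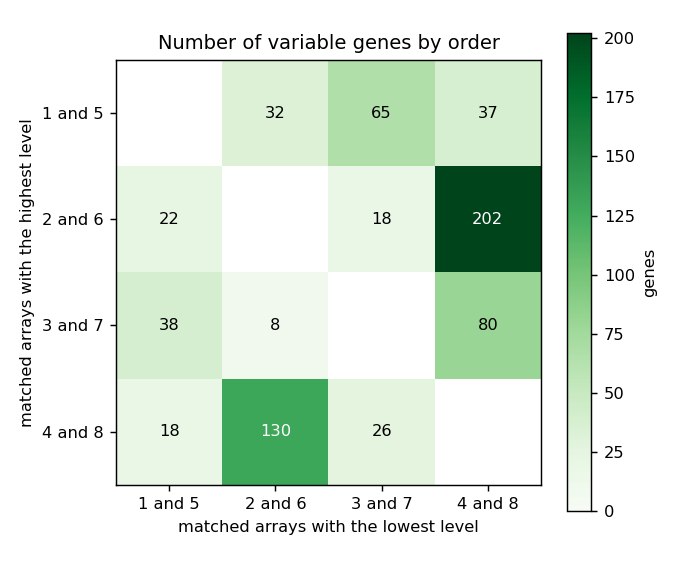
Number of variable genes by the matched arrays with the highest level (down) and the lowest level (across). The largest counts are 202 for controls 2 and 6 over controls 4 and 8, and 130 for the reverse.

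The agreement of the sets can be read from values that did not pick the arrays. When the highest and lowest of arrays 1 to 4 were picked for each of the 1551 genes with a 2-fold range there, the difference between the matched arrays of 5 to 8 had the same direction in 94.8% of genes, with a median of 1.07 against 1.31 in the set that picked them. Over all genes tested the share was 80.7%. In the other direction, 89.7% of the 1746 genes with a 2-fold range in arrays 5 to 8 kept the direction in arrays 1 to 4, against 80.4% of all genes. Of the 1037 genes with a 2-fold range in both sets, 65.2% had matched highest and lowest arrays, against 30.4% of all genes. The matching was itself read from these arrays, so the shares describe how far single genes follow it.

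**Figure D5:**
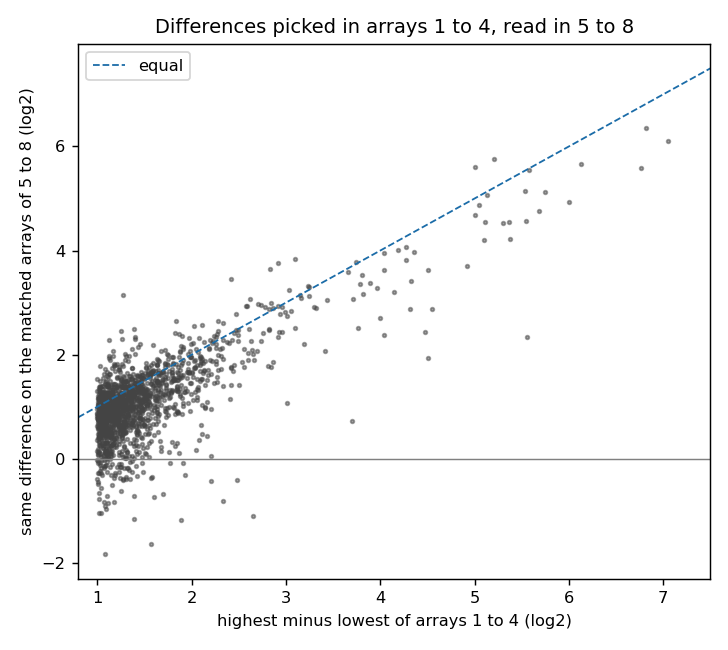
For each of the 1551 genes with a range of at least 1 in control arrays 1 to 4, the range there (horizontal, log2) and the difference between the matched arrays of 5 to 8 (vertical, log2); the dashed line marks equal values. Most points lie above 0 (94.8%), and the median difference was 1.07.

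The genes with the highest signals varied little on the probe sets used. The 50 genes with the highest mean signal, between 10339 and 15659 over the 8 arrays, included 17 ribosomal protein genes, the steroid genes Hsd3b1 and Fdx1, and 31 others, among them Gja1, the gap junction protein connexin 43, the nuclear RNA Malat1, Actb and the ferritin gene Fth1. Probe sets differ in affinity and strong ones approach the top of the scale, so the genes are not ranked and their ranges may be compressed. Of the 50, 0 were variable, and their median shared SD was 0.038, against 0.14 for all genes. Their median range was 0.23 in arrays 1 to 4 and 0.16 in arrays 5 to 8. Hsd3b1, which makes progesterone from pregnenolone, had 15245, 16316, 15041 and 12774 on control arrays 1 to 4, and 11621, 13016, 12133 and 11447 on control arrays 5 to 8. Gja1 had 17490, 15462, 14429 and 14881 on control arrays 1 to 4, and 13735, 13544, 13072 and 12992 on control arrays 5 to 8. For Malat1, a weaker probe set had ranges of 1.00 and 1.17, against 0.45 and 0.32 with the one used, and for Akr1cl, an aldo-keto reductase gene among the 50, 1.16 and 1.00, against 0.12 and 0.13. For Hsd3b1 and Gja1, each array of the first set was above each of the second except control 4 for Hsd3b1.

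The genes with the smallest range over all 8 arrays were Tacc2, Pex13, Polr2m, Chmp2b and Rnf40. Tacc2, which encodes a centrosomal protein, lay between 945 and 969 on control arrays 1 to 4, and between 921 and 959 on control arrays 5 to 8. The commonly used reference gene Hprt lay between 1896 and 2380 on control arrays 1 to 4, and between 1957 and 2049 on control arrays 5 to 8.

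With the probe sets used, the Hedgehog ligands lay above the filter on low signals on all control arrays. Of the 5 Hedgehog genes 0 were variable, against 5.43% of all genes, so the count itself does not set them apart. Dhh had 944, 606, 1371 and 1311 on control arrays 1 to 4, and 811, 621, 1077 and 1085 on control arrays 5 to 8. Ihh had 200, 180, 139 and 425 on control arrays 1 to 4, and 225, 238, 160 and 206 on control arrays 5 to 8. Controls 2 and 6 were the lowest for Dhh with this probe set, and the high value of Ihh on control 4 was not shared by control 8. Dhh's other, weaker probe set had 56.9, 34.7, 61.1 and 74.2 on control arrays 1 to 4, and 86.2, 104, 79.6 and 70.4 on control arrays 5 to 8. On it control 2 was the lowest of the first set but control 6 the highest of the second, and controls 1, 2 and 3 lay under the level of the filter. The targets Hhip and Gli1 lay between 123 and 284 and between 93.2 and 157 on control arrays 1 to 4, and between 192 and 281 and between 38.9 and 107 on control arrays 5 to 8. One copy of Dhh and Ihh is altered in these animals, and levels in mice with unaltered copies were not analysed here.

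The sets were compared with limma, control arrays 1 to 4 minus control arrays 5 to 8, to see which levels follow the set. At an adjusted p under 0.05, 3071 genes (24.7%) differed, 1813 higher (14.6%) and 1258 lower (10.1%) in arrays 1 to 4. Under median centring, which moved the median difference of all genes to 0.34, 94.2% of calls were higher in arrays 1 to 4, against 59.0%, and without the filter 43.5% were. Of the variable genes 12 were called (1.78%), and of the 25 named above 0; the spread within a set that chose these genes enters the error of this fit. With matched arrays as a block, which removes that spread, 6582 of all genes tested (52.9%), 320 of the variable genes (47.3%) and 8 of the 25 were called: S100a4, Cemip, Trpm6 and Slc12a8 higher in arrays 1 to 4, and Abcb1b, Kcnab3, Sema3d and Mid1 lower. These directions hold for the probe sets used. The other probe set of Cemip was lower in arrays 1 to 4, with 144, 553, 580 and 59.8 against 262, 1025, 711 and 67.3. That of Trpm6 was also lower, with 24.8, 105, 62.9 and 31.8 against 149, 263, 131 and 51.2. The other probe set of Sema3d was lower too, and those of Kcnab3 and Mid1 differed in direction between matched arrays. Of the 50 genes with the highest signals 32 were called, all higher in arrays 1 to 4.

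Kdm6b, a histone demethylase, had 2269, 2043, 2300 and 2791 on control arrays 1 to 4, and 361, 287, 383 and 1138 on control arrays 5 to 8, a log2 difference of 2.32 ± 0.36 (SE, limma adjusted p = 0.0022). Sry, the testis-determining gene on the Y chromosome, which ovaries lack, had 16.4, 72.0, 82.1 and 80.1 on control arrays 1 to 4, and 455, 282, 367 and 236 on control arrays 5 to 8, a log2 difference of -2.43 ± 0.43 (SE, limma adjusted p = 0.0038). The difference was not shared by other probe sets of Kdm6b, of which 1 lay between 112 and 201 on control arrays 1 to 4 and between 71.8 and 155 on control arrays 5 to 8, and the other between 72.5 and 112 on control arrays 1 to 4 and between 112 and 136 on control arrays 5 to 8. Sapcd2, Ufsp1 and Cldn3 were lower in arrays 1 to 4 by a similar amount, and Ino80b, Mtus2 and Arf5 higher. The sets did not overlap for any of these 8 genes with the probe set used. The genes were chosen as the largest called differences each way, so this adds nothing to the calls. The share of all genes without overlap was not counted. Of the 2 other probe sets of Sapcd2, 1 was also lower in arrays 1 to 4, by less, and the sets overlapped with the remaining one and with the other probe set of Ufsp1. These p-values measure the spread between arrays of a set, and any difference in animals between the sets cannot be told apart from the hybridization.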

How the data were processed

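Ovarian RNA came from a PicoPure isolation, a WT-Ovation Pico amplification and an Encore biotin labelling, per the labels' protocols. The deposited values are linear intensities, 1 per probe set and array, made with MAS5 per the submitters' processing notes; no version is given in the sources used here. The trimmed mean (2% off each tail) was 500 on each array, read from the values. They were used as deposited, with no second normalization. Precision is limited by the number of arrays, 4 in each set.

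Of 45101 probe sets, 34945 were assigned 1 gene by the platform annotation, 932 several and 9224 none (64 Affymetrix controls included); 34741 matched the RefSeq table (GRCm38.p6) by Entrez identifier and 0 symbols changed. Values were log2(signal + 6.84), the 10th percentile. Probe sets with a mean under the 40th percentile (6.23) were left out, and a gene was represented by whichever of its single-gene probe sets was strongest, which left 12442 of 18193 genes. Deviations, shared SD and the rule for variable genes were computed in Python 3.11.15 (numpy 2.4.6, pandas 2.3.3, figures with matplotlib 3.10.9). The sets were compared in R 4.3.3 with limma 3.58.1 (lmFit, eBayes with an intensity trend, two-sided, Benjamini-Hochberg over all genes tested, threshold 0.05). Both programs were tested on simulated data.

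Named genes were up to 20 of the 50 highest signals, the 25 variable genes with the largest shared SD (1 predicted gene skipped), up to 4 members of each of 19 lists with the largest shared SD, the 4 leading genes for each pair of matched arrays, the 4 largest called set differences each way, Dhh, Ihh and their targets, reference genes (Gapdh and Ppia had no single-gene probe set) and the 5 genes with the smallest range. Any other gene was named after its values were seen. The members, lists, sets and matching were chosen with earlier results of these data known. Alternatives were quantile normalization, median centring, another pseudocount or none, another filter or none, the mean of a gene's probe sets, matched arrays as a block, no intensity trend, other rules for variable genes, and each array left out (for matched measures with its matched array).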

Additional observations from a re-analysis of the deposited data

Results flagged for a closer look

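Dixon's ratio was computed over the 8 arrays for each of the 128 named genes, and 2 exceeded the 95% critical value for 8 values. For independent values chance flags about 1 in 20, which is more than 2 of 128. The 8 arrays are not independent, because matched arrays correlate and the sets differ. The flags are therefore descriptive and are not a test. Retn, the adipocyte hormone resistin, was far lower on control 2 than on any other array, with a ratio of 0.654: it had 83.4, 11.9, 90.1 and 144 on control arrays 1 to 4, and 114, 68.9, 132 and 152 on control arrays 5 to 8. Lmod1, a smooth muscle gene, was far lower on control 5, with a ratio of 0.584: it had 277, 322, 337 and 320 on control arrays 1 to 4, and 107, 211, 272 and 302 on control arrays 5 to 8. The matched array of control 5, control 1, was also the lowest of its set for Lmod1, by a smaller step.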

How the results depend on the processing

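Of the counts and shares that summarise a result, 82 values under an alternative stayed close to the reported one and 7 moved. The number of variable genes was 399 with a filter at the 60th percentile and 109 with a range of at least 2 on the log2 scale, and between 377 and 618 with each pair of matched arrays left out, lowest without controls 4 and 8. Genes with a shared SD of at least 1 numbered 116, with 191 without a filter, 55 with the 60th percentile filter, and 99 to 142 with a pair left out. The set comparison called 6582 genes with matched arrays as a block, 3071 without it, 2138 to 3074 with 1 array left out, and 3570 under median centring. The share of held-out differences in the same direction was 91.7% to 96.9% read in arrays 5 to 8 and 87.3% to 95.2% read in arrays 1 to 4 with a pair left out; without a filter it was 75.4% and 70.6%. Of the 50 genes with the highest signals, 47 to 49 remained under the alternatives run. For single genes, lists and orders, 1248 values stayed close and 335 moved, and the cause of these moves was not tested. Some comparisons between counts were reversed. Controls 4 and 8 rather than controls 2 and 6 were highest for the most variable genes under both other scalings. Most calls of the set comparison were higher in arrays 1 to 4 (59.0%), but without the filter fewer were (43.5%). The 60th percentile filter, which tests 9572 genes, gave 74, 130, 82 and 113 genes highest on controls 1 and 5, 2 and 6, 3 and 7, and 4 and 8. Other single genes whose place among variable genes changed were Pgr, Fos, Gdf9 and Lyz2 under quantile normalization and Hsd17b7, Adamts1, Fos, Dhcr7, Cd68, Lyz2 and C1qa under median centring, which moved the median deviation of all genes by up to 0.30. No paired analysis was possible by the replicate numbers of the labels because each number occurs once among the controls and the mutant arrays that share them were not used; the block of matched arrays above comes from the values. Signals under the filter limit what can be said of weak genes such as those of the LH surge.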

Other observations

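The following genes were chosen after their values were seen. Dbp, a clock-driven transcription factor, had 1375, 3248, 4691 and 1993 on control arrays 1 to 4, and 1231, 2824, 3991 and 1695 on control arrays 5 to 8. Per3, a clock gene, had 587, 829, 1499 and 968 on control arrays 1 to 4, and 490, 711, 1168 and 762 on control arrays 5 to 8. Both were highest on controls 3 and 7 and lowest on controls 1 and 5, while Per2 was highest on controls 4 and 8, at 303 and 345. The hour of collection is not given in the sources used here.

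Atp6v0d2, a proton pump subunit, had 294, 701, 97.7 and 261 on control arrays 1 to 4, and 334, 968, 176 and 378 on control arrays 5 to 8. Mmp12, a macrophage elastase, had 135, 317, 53.3 and 148 on control arrays 1 to 4, and 138, 363, 68.7 and 129 on control arrays 5 to 8. Both were highest on controls 2 and 6 and lowest on controls 3 and 7, as were Gpnmb and Ctss. Of the 9 tested macrophage markers, Cd68 and Lyz2 had these highest and lowest arrays too. Another 5, Csf1r, Mrc1, C1qa, C1qb and C1qc, were lowest on controls 4 and 8, and the lowest arrays of Adgre1 and Fcgr3 were not matched. The acute phase gene Saa1 followed Saa3, with 136, 596, 72.4 and 18.9 on control arrays 1 to 4, and 162, 491, 90.8 and 61.3 on control arrays 5 to 8.

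Sgk1, a kinase induced by steroids, had 3724, 6138, 6348 and 1322 on control arrays 1 to 4, and 3196, 5321, 5871 and 1159 on control arrays 5 to 8. Zbtb16, a glucocorticoid-responsive transcription factor, did not share that order, with 408, 52.0, 177 and 122 on control arrays 1 to 4, and 580, 96.9, 224 and 158 on control arrays 5 to 8. Kit, the receptor of stem cell factor carried by oocytes and theca, had the highest and lowest arrays of the oocyte list, but not the order between them. It had 299, 134, 389 and 728 on control arrays 1 to 4, and 360, 146, 413 and 721 on control arrays 5 to 8. The ciliary genes Dnah2 and Fam183b were highest on controls 1 and 5, with controls 4 and 8 next.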
